A study of Mus musculus with 15 samples.

Results

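The genes here are 40 proliferation genes, 13 for S phase, when DNA is copied, or its preparation, and 27 for G2 and mitosis (G2/M). They were taken by name from a list and are 40 of the 30534 features in the count tables. All 40 were present in each of the 11 transcript libraries and passed the filter on low counts in every fit. Frozen sections of mouse embryos were measured by spatial barcoding, in which each square of a grid over the section, a pixel, carries its own barcode and yields a count per gene. The groups were embryonic day 10 (E10) with pixels 50 µm (3 libraries), 25 µm (1 library) and 10 µm wide (2 libraries), embryonic day 11 (E11) at 25 µm (2 libraries) and 10 µm (2 libraries), and embryonic day 12 (E12) at 50 µm (1 library). No treatment, strain or genotype is given in the labels. The labels do not say whether libraries came from separate embryos or which region a section covers, so p-values measure the spread between these libraries, which may be technical. Stage cannot be told apart from embryo and region.

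Before a cell divides, Cdc6 and Cdt1 load the Mcm helicase on DNA, and geminin (Gmnn) holds Cdt1 in check. Ribonucleotide reductase (Rrm1, Rrm2), thymidylate synthase (Tyms) and the sliding clamp Pcna supply and support DNA synthesis. Cyclins A and B with Cdk1, and the Aurora and Polo kinases, then drive mitosis, kinesins and microtubule proteins build the spindle, and Cdc20 and Ube2c serve the anaphase-promoting complex that ends it. In the embryonic neural tube, progenitors divide near the ventricle and neurons leave the cycle as they form. Mki67 coats mitotic chromosomes and Top2a untangles DNA.

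Promoters of 34 of the 40 genes were found in the RefSeq table for GRCm38.p6. Many genes of both phases are known to be controlled through E2F sites, CCAAT boxes and the cell cycle homology region (CHR). The 120 bases upstream of the annotated start are shown for 3 G2/M genes to which later results return and for 1 helicase gene with E2F letters. Capitals mark CCAAT, the CHR letters TTTGAA or TTCGAA, or the E2F letters TTTCCCGC, TTTGGCGC, TTTCGCGC or TTTGCCGC, on either strand. Adjoining capitals in Mcm6 are 2 overlapping E2F matches, 1 on each strand. The windows are chr7:135716380-135716499 for Mki67, chr11:99024190-99024309 for Top2a, chr11:40733438-40733557 for Hmmr and chr1:128359706-128359825 for Mcm6, all on the minus strand.
Mki67: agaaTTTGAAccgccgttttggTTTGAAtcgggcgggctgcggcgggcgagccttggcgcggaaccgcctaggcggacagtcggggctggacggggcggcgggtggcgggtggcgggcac
Top2a: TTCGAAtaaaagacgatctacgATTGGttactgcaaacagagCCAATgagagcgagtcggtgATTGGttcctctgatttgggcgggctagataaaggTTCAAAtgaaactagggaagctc
Hmmr: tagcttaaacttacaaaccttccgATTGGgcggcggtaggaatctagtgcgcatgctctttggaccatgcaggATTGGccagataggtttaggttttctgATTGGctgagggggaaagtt
Mcm6: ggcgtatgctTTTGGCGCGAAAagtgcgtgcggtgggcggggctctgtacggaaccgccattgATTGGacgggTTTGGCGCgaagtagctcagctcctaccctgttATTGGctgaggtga

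Within 250 upstream bases, CCAAT was found in 20 of 23 G2/M genes (87%) and 8 of 11 S genes (72.7%), against 37.5% of all 27025 genes with a window. CHR letters were found in 10 of 23 G2/M genes (43.5%), 2 of 11 S genes (18.2%) and 19.6% of all genes. E2F letters were found in 4 of 11 S genes (36.4%), 1 of 23 G2/M genes (4.35%) and 2.16% of all genes. These are matches of letters and were not tested as sites.

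The libraries held 1.56 to 12.0 M counts (M, counts divided by 1e6) in 829 to 2271 tissue pixels, and the median pixel held 5 to 78 counts of the 40 genes. Red cell genes took 8.96% of counts in the E12 library and 1.49% to 3.28% in the others. Pairs of libraries within a group differed by far more than sampling noise, so none was a copy of another. Pixels are named by grid position, and pairs of libraries therefore shared 521 to 2500 positions. Levels below are counts scaled to a total of 1e6 tissue counts per library or area (CPM), and fewer cycling cells cannot be told apart from less RNA of these genes per cell.

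The question of the first comparison is how much of the section's RNA came from the cycle at each stage. The 40 genes together made up 7844, 7880 and 6951 CPM at E10 with 50 µm pixels, 6460 CPM at E10 with 25 µm pixels, and 7718 and 7532 CPM at E10 with 10 µm pixels. The sum was 5538 and 7208 CPM at E11 with 25 µm pixels, 6815 and 5858 CPM at E11 with 10 µm pixels, and 5495 CPM in the E12 library. The E12 library was the lowest of the 11, and the E10 and E11 libraries overlapped. With red cell genes left out of the total, the E12 library held 1742 CPM of S and 4294 CPM of G2/M genes. Both were above the 1718 and 4272 CPM of E11 10 µm replicate 2, so E12 was then no longer the lowest. The 27 G2/M genes together held more counts than the 13 S genes in every library, with a ratio of S to G2/M counts of 0.295 to 0.481.

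**Figure D1:**
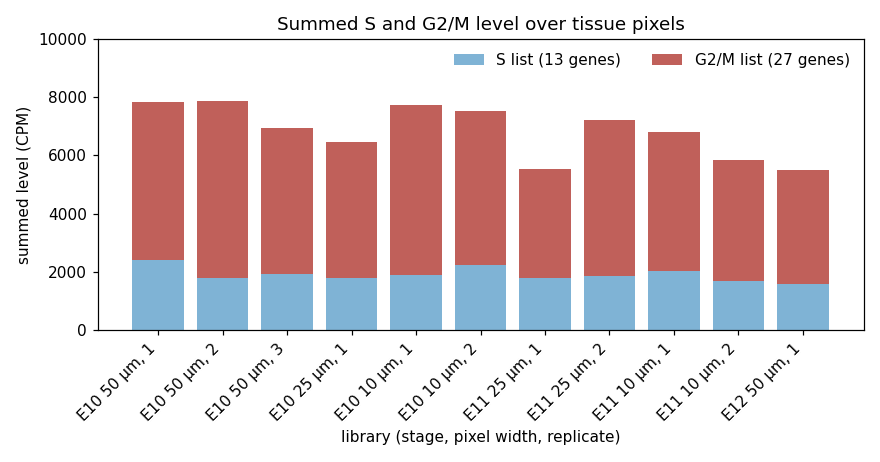
Summed level of the S list (lower part of each bar) and the G2/M list (upper part) in CPM over the tissue pixels of each of the 11 libraries. With red cell genes in the total, the E12 library has the lowest sum, 5495 CPM, and the highest is 7880 CPM at E10 with 50 µm pixels.

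Over whole sections, no member other than Ube2c passed the test between E11 and E10, averaged over 10 and 25 µm. Ube2c, the ubiquitin-conjugating enzyme of the anaphase-promoting complex, was the 1 of 40 called higher, against 1.93% of all tested genes called higher. Its level was 240 and 329 CPM at E10 and 434 and 320 CPM at E11 with 10 µm pixels, and 78.7 CPM at E10 against 324 and 343 CPM at E11 with 25 µm pixels. The groups overlapped at 10 µm, and the single E10 library at 25 µm lay far below every other E10 library. The averaged log2 fold change was 1.34 ± 0.25 (SE; edgeR adjusted p = 0.0166), but at 10 µm alone, a comparison chosen after seeing the data, it was 0.38 ± 0.30 (adjusted p = 0.502), and at 25 µm alone 2.30 ± 0.42 (adjusted p = 0.0372). The call therefore rests on 1 library without a replicate. In the averaged comparison 4 of 8 neuron markers were called lower, and their part in the result was not tested.

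Pcna, the sliding clamp of DNA polymerases, did not pass the averaged test, with a log2 fold change of -1.03 ± 0.26 (edgeR adjusted p = 0.0515). It was at 166 and 241 CPM at E10 and 87.9 and 64.2 CPM at E11 with 10 µm pixels, and at 185 CPM at E10 against 76.6 and 133 CPM at E11 with 25 µm pixels. The E11 libraries were all below the E10 libraries of these widths. At 10 µm alone Pcna was the 1 member called, at -1.45 ± 0.35 (adjusted p = 0.0404), and at 25 µm alone it was at -0.61 ± 0.41 (adjusted p = 0.522).

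Of the 40 genes, none was called between the E12 library and E10 at 50 µm, where 2.14% of all genes were, and 7 had an unadjusted p under 0.05 (17.5%, against 14.4% of all genes). Their median log2 fold change was -0.40, against -0.04 over all genes, and 36 of 40 were negative. The reductase subunit Rrm2 was at 280, 159 and 206 CPM at E10 and 92.3 CPM in the E12 library, a log2 fold change of -1.25 ± 0.43 (edgeR adjusted p = 0.179). Cell type markers moved with this comparison: red cell genes (5 of 9 called higher and 1 lower), mesenchyme markers (3 of 7 called higher) and liver markers (1 of 8 called higher, median 9.29). None of the neural markers was called, but all were negative, with a median of -3.77 for 7 progenitor markers and -1.58 for 8 neuron markers. Their part in the result was not tested. Between widths none of the 40 was called either, against 0.11% of all genes at E10 (10 against 50 µm) and 2.07% at E11 (10 against 25 µm). An unadjusted p under 0.05 was found for 2 members at E10, against 10.8% of all genes, and for 0 at E11, against 11.5%.

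Mki67 and Top2a carried the most counts of the 40, with gene length not taken into account. Mki67 was at 853, 1047 and 888 CPM at E10 with 50 µm pixels, 984 CPM at 25 µm and 919 and 727 CPM at 10 µm. It was at 681 and 871 CPM at E11 with 25 µm pixels, 697 and 570 CPM with 10 µm pixels, and 732 CPM in the E12 library. The E10 and E11 ranges overlapped. Top2a ranged from 681 to 1350 CPM, Rrm2 from 92.3 to 283 CPM, Mcm6 from 176 to 260 CPM, Birc5 (survivin) from 109 to 149 CPM, Ccnb1 (cyclin B1) from 74.2 to 156 CPM and Cdk1 from 81.8 to 130 CPM over the 11 libraries.

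The spatial order of the 40 genes within sections differed between libraries. Moran's I, which is near 0 for values without spatial order and near 1 where neighbours are alike, was 0.265 to 0.566 for the G2/M sum with 50 µm pixels and 0.10 to 0.194 with 10 µm pixels. For the S sum it was 0.135 to 0.359 and 0.0846 to 0.121. With 25 µm pixels it was 0.205 and 0.341 for G2/M and 0.162 and 0.224 for S at E11, and 0.0268 and 0.0556 in the E10 library, which had the fewest counts per pixel. Counts per pixel differed between these widths and libraries, and Moran's I was not compared at equal depth. The S and G2/M shares of a pixel had a Pearson correlation of 0.397 to 0.542 across pixels in the 3 E10 libraries with 50 µm pixels and 0.0918 to 0.290 in the other 8. Pixels share their library and depth, and these values are descriptions.

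**Figure D2:**
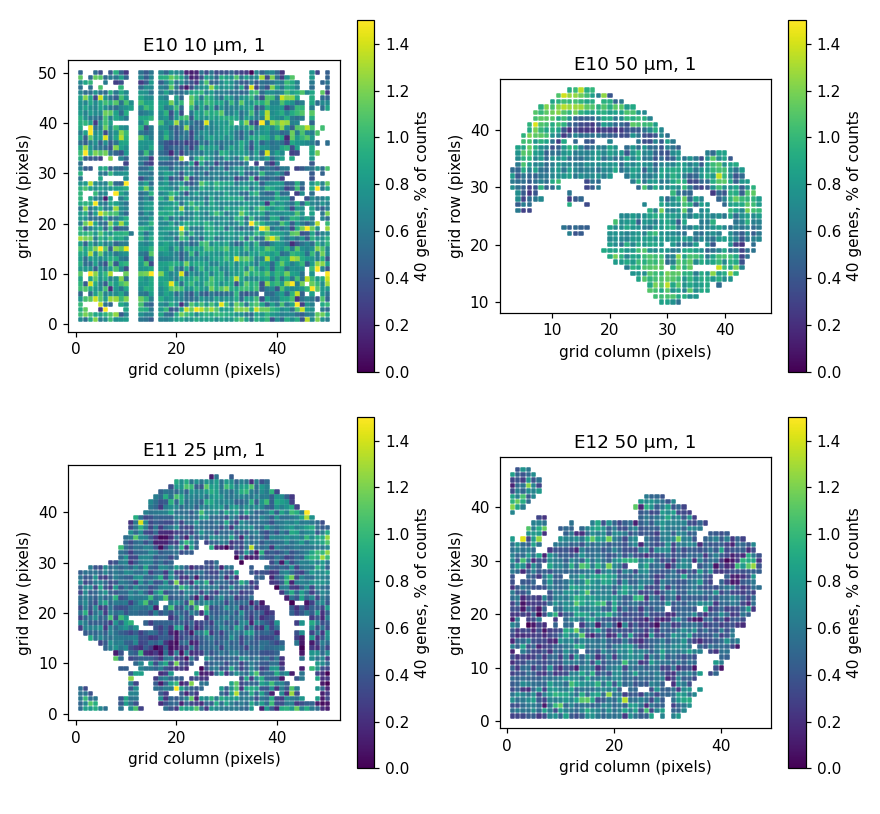
Share of a pixel's counts that came from the 40 genes, in percent, at each tissue pixel of 4 libraries, by grid column and row in pixels. Bands of higher and lower share run along the E10 section with 50 µm pixels. With red cell genes in the total, the E12 section has the lowest sum of the 4, 5495 CPM.

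Areas were then defined in each library by the share of counts from marker genes of neural progenitors, neurons, heart muscle, liver and red cells, with no member among the markers. A pixel holds several cells or part of one, so an area is a set of pixels rich in those markers and not a cell type. Areas were compared within libraries, with the remaining tissue pixels called the rest. The markers of each area were all called higher in it, which follows from how the areas were chosen and is no test of them.

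All 40 genes were lower in neuron-rich areas than in the rest, where 15.2% of all tested genes were called lower. Their median log2 fold change was -0.63, against -0.08 over all genes, with 13 of 13 S genes and 27 of 27 G2/M genes called. The summed level fell in 9 of 9 libraries, to 0.605 times the rest on average (0.436 to 0.750). Of the 40, 30 were lower in each of the 9 libraries. All 40 estimates stayed negative in each of 18 alternatives, and 37 to 40 were called in 17 of them. Without the library as a block, 27 were called.

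Cdc6, which loads the helicase, was at 0 to 25.1 CPM in neuron-rich areas (median 17.4) and 26.9 to 40.3 CPM in the rest (median 30.7). It had no count in the neuron-rich area of the E12 library, which allows up to 8.98 CPM (3 counts, counting error only). Its 2 ranges did not overlap, and its log2 fold change of -0.97 ± 0.18 (edgeR adjusted p = 1.15e-05) was the largest fall of the 40. Kif20a, a kinesin of the spindle midzone, fell by 0.91 on the log2 scale (SE 0.13, adjusted p = 2.6e-08), and Bub1, a checkpoint kinase, by 0.90 (SE 0.14, adjusted p = 1.73e-07). Mki67 was at 140 to 779 CPM in neuron-rich areas (median 474) and 641 to 1114 CPM in the rest (median 907), lower in 9 of 9 libraries. Top2a was at 296 to 1066 CPM (median 755) and 746 to 1457 CPM (median 1133), lower in 9 of 9 libraries. The other members described by name fell as well, on the log2 scale by 0.66 for Ccnb1, 0.64 for Birc5, 0.63 for Mcm6, 0.61 for Rrm2, 0.58 for Cdk1 and 0.47 for Pcna. Pcna and Birc5 were each lower in 8 of 9 libraries and Mcm6 in 9 of 9. The smallest fall was that of Prc1, a microtubule bundler, at -0.31 ± 0.10 (adjusted p = 0.019). By role, the medians ran from -0.51 for the 9 cyclins and kinases to -0.79 for the 2 cytokinesis genes, Anln and Ect2. Mesenchyme markers were also lower there (6 of 7 called) as were endothelial markers (2 of 7), and their part in the result was not tested.

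**Figure D3:**
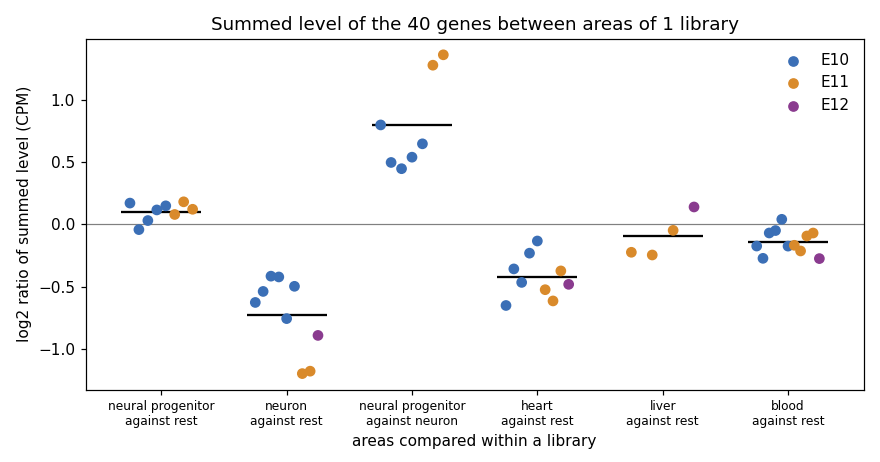
Log2 ratio of the summed CPM of the 40 genes between areas of the same library, 1 point per library coloured by stage, with the mean as a line. Neuron-rich and heart areas lie below 0 in all 9 libraries, and neural progenitor areas lie above neuron-rich areas in all 7.

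Genes of the same processes outside the list moved likewise. Of 33 tested other replication genes 28 were called lower in neuron-rich areas, and of 37 other mitosis genes 31 were, against 15.2% of all tested genes. Both lists were chosen with earlier results of these data known and were tested on the same pixels, so they are no separate support. The median log2 fold changes were -0.63 for the other replication genes and -0.56 for the other mitosis genes.

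Neural progenitor areas exceeded neuron-rich areas for 37 of the 40 genes, against 8.91% of all tested genes called higher. The summed level was 1.73 times as high on average (1.36 to 2.57) and higher in 7 of 7 libraries. The largest differences were those of Hmmr, a spindle microtubule protein, at 0.98 ± 0.18 (edgeR adjusted p = 4.54e-05), Mki67 at 0.96 ± 0.17 (adjusted p = 5.77e-05) and Cenpf, a kinetochore protein, at 0.95 ± 0.10 (adjusted p = 2.57e-10). Mki67 was at 761 to 1074 CPM (median 995) in progenitor areas and 140 to 779 CPM (median 523) in neuron-rich areas. The ranges overlapped only between 761 and 779 CPM. Cdt1 (adjusted p = 0.0542), Cdk1 (adjusted p = 0.0649) and Aurkb, the Aurora B kinase (adjusted p = 0.0885), did not pass, though all 40 estimates were positive. This comparison shares the neuron-rich pixels with the one before.

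Against the rest, neural progenitor areas differed little. Rrm2 (0.34 ± 0.10, edgeR adjusted p = 0.0214), Nusap1 (0.36 ± 0.11, adjusted p = 0.0259) and Prc1 (0.36 ± 0.10, adjusted p = 0.0118) were called higher, 3 of 40 against 2.94% of all genes. Each was higher in 8 of 8 libraries. Mesenchyme markers (5 of 7) and endothelial markers (4 of 7) were called lower there, and their part in the result was not tested. None of the 40 was called at a stricter area threshold, without the filter on low counts or without the library as a block. The summed level was 1.07 times the rest, higher in 7 of 8 libraries. Between E11 and E10 within progenitor areas, none of the 40 was called, against 0.763% of all genes, with 5 at an unadjusted p under 0.05 (12.5%, against 13.2% of all genes). The fit had 3 residual degrees of freedom.

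The summed level also fell towards neurons over bins of pixels. Pixels of the neural progenitor and neuron-rich areas were put in 5 equal bins by the neuron markers' share of neural marker counts. The bins sort largely the same pixels by the same markers as the comparison of these 2 areas, and are not a separate result. The mean summed level over 9 libraries was 8077, 7235, 6778, 5920 and 4321 CPM from the lowest to the highest bin. The last bin was below the first in 9 of 9 libraries, at 0.521 times its level (0.318 to 0.867), although only 3 libraries fell at every step. The levels were 8502, 8883, 9085, 6270 and 2707 CPM in E11 25 µm replicate 2. They were 7594, 4778, 4781, 4327 and 4142 CPM in E10 10 µm replicate 1. Bin 4 had a median neuron share of 27.5% in E11 25 µm replicate 1 and 91.1% in E10 10 µm replicate 1. The even fall of the mean is therefore not that of each library. The S genes went from 2221 to 1253 CPM and the G2/M genes from 5855 to 3069 CPM. In bins of all tissue pixels by globin share, levels were scaled to counts without the globin genes. The mean was 7316 CPM in the first bin and 7253 CPM in the last. Libraries went both ways, 6 lower and 5 higher in the last bin (0.813 to 1.37 times). The E12 library rose most, from 5649 to 7742 CPM. Its median globin share went from 1.79% to 22.4%, so this rise is larger than it would be in CPM of all counts. The E12 blood-rich area was at 0.826 times the rest with red cell genes in the total and at 0.970 times without them. The E12 liver area also held many red cell counts, 127400 CPM. Without red cell genes the 40 genes were at 7036 CPM there, 5585 CPM in the blood-rich area and 5759 CPM in the rest. The part of liver pixels in the rise was not tested.

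**Figure D4:**
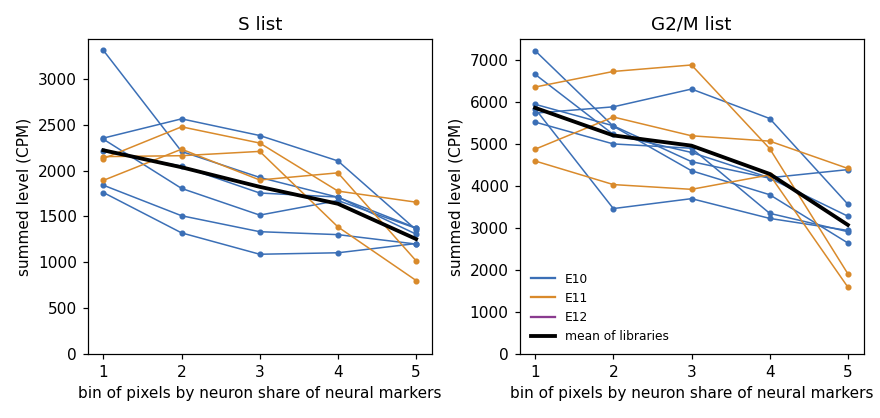
Summed CPM of the S list (left) and the G2/M list (right) in 5 bins of pixels ordered by the neuron share of neural marker counts, 1 thin line per library coloured by stage and a thick line for the mean of 9 libraries. The mean goes from 2221 to 1253 CPM for S and from 5855 to 3069 CPM for G2/M.

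In 3 E11 and E12 libraries, neuron-rich areas stood further below the rest than those of the 6 E10 libraries. The summed level was 0.436, 0.442 and 0.539 times the rest in these later libraries and 0.592 to 0.750 times at E10, without overlap. E11 10 µm replicates 1 and 2 were left out, with 19 and 15 neuron-rich pixels. Their summed levels were 6182 and 5199 CPM in those pixels, against 6791 and 6145 CPM in the rest. Both fell less than any library used, so the difference by stage holds only for the libraries kept. A test of the difference, chosen after seeing the data, called 5 of the 40 lower, against 1.26% of all tested genes. Hmmr led at -1.85 ± 0.37 (edgeR adjusted p = 0.0024). In neuron-rich areas it was at 39.3 to 93.3 CPM at E10 and at 17.4, 16.3 and 21.0 CPM in the later libraries, which did not overlap. The later areas held 114728, 307052 and 334051 counts of all genes, so each of these 3 levels rests on a few counts of Hmmr. The spindle assembly factor Tpx2 (-1.12 ± 0.25), Mcm4 (-0.82 ± 0.23), Top2a (-0.79 ± 0.12) and Mki67 (-0.76 ± 0.17) were the others. Mcm4 lost its call in 6 of 10 alternatives. The later neuron-rich areas were small, 35 to 51 pixels against 89 to 249, and without E11 25 µm replicate 2 only 1 of the 40 was called. In the same test 4 of 7 mesenchyme markers were called lower, and neuron markers had a median of 1.59 with none of 8 called. Their part in the result was not tested.

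Heart areas were lower for 14 of the 40 genes, against 6.38% of all tested genes called lower, with 9 of 13 S genes and 5 of 27 G2/M genes among them. The summed level was 0.744 times the rest (0.637 to 0.911) and lower in 9 of 9 libraries. The sums of the 2 lists fell alike, to 0.724 times the rest for S and 0.751 times for G2/M, each in 9 of 9 libraries. Rrm2 was at 54.9 to 188 CPM in heart areas (median 105) and 75.7 to 301 CPM in the rest (median 182), lower in 9 of 9 libraries, with a log2 fold change of -0.67 ± 0.12 (edgeR adjusted p = 9e-06). Cenpe, a kinetochore motor, was at -0.49 ± 0.09 (adjusted p = 5.1e-05) and Tyms at -0.47 ± 0.12 (adjusted p = 0.00228). All 4 genes of nucleotide supply and the clamp were called. Anln, a cleavage furrow protein, was the 1 member with a positive estimate, at 0.18. The count depended on the processing, from 2 without the library block to 24 without the filter on low counts. Endothelial markers were higher in heart areas (6 of 7 called), and red cell genes took 140700 CPM of the E12 heart area, so heart areas held other cells whose part in the result was not tested.

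Liver areas were found in 4 libraries, at E11 and E12. Cdc6 (0.55 ± 0.20, edgeR adjusted p = 0.038) and Cdt1 (0.36 ± 0.13, adjusted p = 0.0473), which load the helicase together, were called higher, 2 of 40 against 10.4% of all genes, a share below the background. Each was higher in 3 of 4 libraries. In CPM, 11 of the 40 were lower than the rest in each of the 4 libraries and 0 were higher in each. In CPM the summed level was lower than the rest in the 3 E11 libraries and 1.10 times the rest at E12, while the median of the 40 fitted log2 fold changes was 0.13, so no direction is given for the whole list. Each of the 2 genes lost its call in 10 of 18 alternatives, and neither was called without the library block or with pixels over several area thresholds left out. Red cell markers (3 of 9 called higher) and neural progenitor markers (4 of 7 called lower) moved with this comparison, and their part was not tested.

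Blood-rich areas had 1 gene called higher, against 3.53% of all genes, and 1 called lower, against 2.37%. Mki67 was at 568 to 1653 CPM in blood-rich areas (median 1231) and 566 to 1114 CPM in the rest (median 875), higher in 10 of 11 libraries, with a log2 fold change of 0.68 ± 0.14 (edgeR adjusted p = 0.00143). The E12 library was the exception, at 568 against 641 CPM. Top2a, the other gene of mitotic chromosomes, was higher in only 3 of 11 libraries. Mcm7, a helicase subunit, was at 124 to 241 CPM against 181 to 322 CPM and lower in 11 of 11 libraries (-0.34 ± 0.09, adjusted p = 0.0148). Its call was lost in 4 of 18 alternatives, where the highest adjusted p was 0.507, and that of Mki67 in none of 18. Over all 40 genes the summed level was 0.908 times the rest. The S genes summed to 0.812 times the rest, lower in 11 of 11 libraries, and the G2/M genes to 0.945 times. With red cell genes left out of the total, the mean log2 ratio of all 40 turned from -0.139 to 0.056. That of the G2/M genes was then 0.112, while the S genes stayed lower, at -0.106, in 10 of 11 libraries. Mki67 counts toward the G2/M sum and the sum of all 40, and neither was taken without it. The G2/M values are therefore not shown to hold for the other G2/M genes. Endothelial markers were higher in blood-rich areas (6 of 7 called), and their part in the Mki67 result was not tested.

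**Figure D5:**
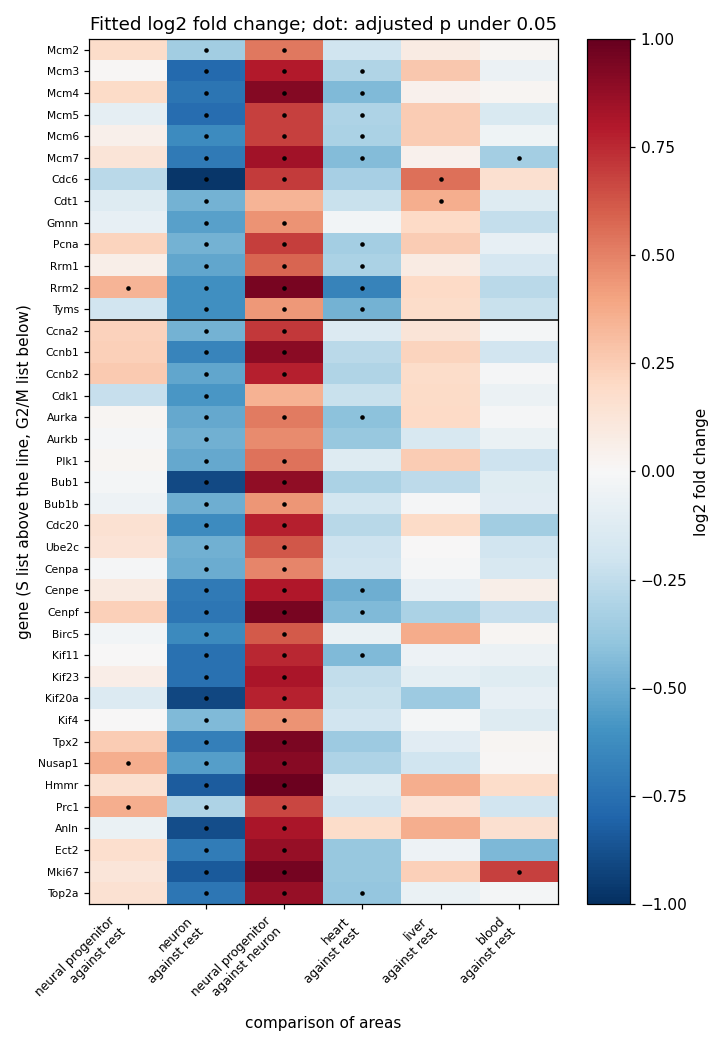
Fitted log2 fold change of each of the 40 genes (rows) in the 6 comparisons of areas (columns), with a dot where the edgeR adjusted p was under 0.05. Every gene is lower in neuron-rich areas, 37 of 40 have a dot in progenitor against neuron-rich areas, and Mki67 is the 1 gene with a dot for a higher level in blood-rich areas, where 10 of 40 estimates are positive.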

How the data were processed

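The authors deposited tables of counts per gene and pixel, with no normalization, per the file headers. The submitters' processing notes name CASAVA 1.8.2 and GRCh38, a human build; aligner, strand use and collapsing of duplicate molecules are not given in the sources used here. The 4 antibody libraries were not used. Tissue pixels had at least 0.1 of the library's 95th percentile of total counts. Areas were pixels at or above the 90th percentile of a marker list's share, with at least 3 marker counts and 20 pixels per library; their marker lists and those for endothelium, mesenchyme, other replication and other mitosis genes, like the 40 members, were chosen with earlier results of these data known. Counts were summed per library or per area and tested with edgeR 4.0.16 (quasi-likelihood, TMM, default filter, robust; R 4.3.3), two-sided, with Benjamini-Hochberg adjustment over all tested genes at 0.05. Whole sections were fitted with 6 group means (18233 genes, 5 residual degrees of freedom), areas with the library as a block (11790 genes, 36 degrees of freedom). Groups of 1 library were assumed to vary like the others. Named per comparison were up to 3 called members with the largest change in each direction, and 8 members fixed by name (Mki67, Top2a, Ccnb1, Cdk1, Birc5, Pcna, Mcm6, Rrm2). Alternatives were DESeq2 1.42.0, no filter, all pixels, a 95th percentile threshold, exclusive pixels, no block, red cell genes left out and each library left out where both groups of a comparison still held one; the lone E10 25 µm and E12 libraries could not be left out of the stage comparisons that need them. The fits were tested on simulated data: folds came back without bias and no call had the wrong sign, but many changed genes were not called in the whole-section fit, so a gene not called there is not shown to be unchanged. The simulated dispersion (squared relative variation between libraries) was 0.05, with no library differences but depth. The data had 0.101 over whole sections and 0.0223 for areas, so the whole-section check ran at less noise than the data. Positions and promoters are from GRCm38 annotation. Precision is limited by 1 to 3 libraries per group.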

Additional observations from a re-analysis of the deposited data

Results flagged for a closer look

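The difference between neuron-rich areas and the rest was larger in the E11 and E12 libraries kept than in E10 libraries for 5 of the 40 genes. This was an edgeR test of that difference chosen after seeing the data. E11 10 µm replicates 1 and 2 had too few neuron-rich pixels to enter it, and their summed level fell less than that of any library kept. The differences in log2 fold change were -1.85 for Hmmr, -1.12 for Tpx2, -0.82 for Mcm4, -0.79 for Top2a and -0.76 for Mki67. The later levels of Hmmr rest on a few counts. Without E11 25 µm replicate 2 only 1 of the 40 was called.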

How the results depend on the processing

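The 40 genes called lower in neuron-rich areas became 39 with DESeq2, 27 without the library block and 37 to 40 with 1 library left out, and the 37 called higher in progenitor than in neuron-rich areas became 26 without the block and 32 to 39 with 1 library left out. Counts of members called elsewhere moved as follows. Between E11 and E10, 1 became 3 with DESeq2, 2 without the filter, and 1 to 3 with 1 library other than E10 25 µm left out; at 10 µm alone the count was also 1 but the gene was Pcna, not Ube2c. Progenitor areas against the rest went from 3 to 0 at the 95th percentile threshold, without the filter and without the library block, and to 1 to 4 with 1 library left out. Heart areas went from 14 to 8 at the 95th percentile, 9 with DESeq2, 24 without the filter and 2 without the block. Liver areas went from 2 to 5 at the 95th percentile, 1 without the filter, 0 without the block and 0 with exclusive pixels, and to 0 to 4 with 1 library left out. Blood-rich areas went from 2 to 1 at the 95th percentile, with DESeq2 and without the block, each time by the loss of Mcm7, and to 9 without the filter. The difference by stage in neuron-rich areas went from 5 to 3 at the 95th percentile and to 1 to 6 with 1 library left out. The mean log2 ratio of the summed level moved from 0.10 to 0.012 in progenitor areas at the 95th percentile, and from -0.139 to 0.056 in blood-rich areas with red cell genes left out of the total. The same-numbered E11 libraries deviated together with a correlation of 0.0544, over too few pairs to pair them; with the replicate number as a block, 0 members were called between E11 widths. The causes were not tested. Whole-section comparisons had few libraries, and genes not called there may still differ.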
